A study of Homo sapiens with 4 samples.

Results

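The mRNAs of 6 enzymes of serine and asparagine synthesis, PHGDH, PSAT1, PSPH, SHMT2, MTHFD2 and ASNS, were followed through a polysome gradient. They were taken by symbol from a table of 19948 gene symbols. The rule asked for at least 10 counts summed over the 4 libraries, which all 6 met. With totals from 196 to 776 counts, all 6 also passed the minimum of 30 counts used for the comparisons, as did 7527 genes in all. The enzymes were listed together as known targets of the transcription factor ATF4. The rule uses their names and this minimum, and the list was drawn up with earlier results of these data known.

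The cells were HEK293T, a line derived from human embryonic kidney. All 4 libraries came from cells given 100 ug/mL cycloheximide for 10 min, which halts elongating ribosomes on the mRNA, and no other drug or genotype is named in the labels. Lysates were spun through sucrose of 10 to 50% and collected as the free pool (mRNA without ribosomes), the monosome pool (a single ribosome), the light polysome pool and the heavy polysome pool (most ribosomes per mRNA). Capped, polyadenylated RNA of each pool, caught on beads that carried mutant eIF4E, which binds the cap, was read directly on nanopores, with 1 library per pool. Whether all pools came from 1 gradient is not said in the labels.

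Levels are given as CPM, the count divided by the library total and scaled to 1000000. Library totals were 355509 counts for free, 1329334 for monosome, 1499401 for light polysome and 1564531 for heavy polysome. Of the 7527 tested genes 31.2% had no count in the free library, against at most 0.518% in any other. Of 8 markers chosen for this line all had a count and 6 had at least 10, with VIM and KRT18 highest, whereas the kidney lineage factors PAX2 and LHX1 had 6 and 2 counts. Of 8 markers of blood, liver, muscle and other cell types 3 had a count, 11 counts in total, and the summed level was 0 to 11.3 CPM per library. With 1 library per pool no spread between replicates exists and no p-value can be given. Intervals are 95% counting intervals and cover counting error only.

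Serine is made from the glycolytic intermediate phosphoglycerate in a short pathway. PHGDH oxidises it, PSAT1 moves an amino group onto the product, and PSPH removes the phosphate. In mitochondria SHMT2 splits serine into glycine and a one-carbon unit carried on folate, and MTHFD2 oxidises that unit further for use in nucleotide synthesis. ASNS makes asparagine from aspartate, with glutamine as the amino donor. When amino acids run short, phosphorylation of the initiation factor eIF2 lowers general initiation but raises translation of ATF4 through short reading frames upstream of its own, and ATF4 then switches on genes such as these 6.

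The sequences around the start codons are shown because this is where ribosomes must begin on each mRNA. They were read from the GENCODE release 29 transcript with the best annotation of each gene, 5′ to 3′. Capitals mark the base 3 before the start codon, the ATG and the base directly after it, the positions that matter most for start recognition.
PHGDH: ccaactccaGcaATGGctttt
PSAT1: ggccgccgcAccATGGacgcc
PSPH: attcttccaGcgATGGtctcc
SHMT2: ttccgagttGcgATGCtgtac
MTHFD2: ccggcgcggTctATGGctgcg
ASNS: cttcattgcAccATGTgtggc

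PHGDH, PSAT1 and PSPH carried a purine before and a G after the start codon, 3 of 6, as did 46.5% of 7464 tested genes with an annotated transcript. A purine in the first of these positions was found in 5 of 6, MTHFD2 being the exception, against 85.4% of the tested genes. Upstream ATG triplets lay in 4 of 6 annotated 5′ leaders, against 49.2% of tested genes. PSPH had 6 in a leader of 758 bases, PHGDH 3 in 308 bases, SHMT2 3 in 452 bases and ASNS 2 in 529 bases, while MTHFD2 (80 bases) and PSAT1 (68 bases) had none. No member began with 4 or more pyrimidines, a feature of the TOP mRNAs that the study is about, and 6.79% of the tested genes did. Runs that open with T were counted as well as those that open with C, so that figure is not the share of TOP mRNAs. The reads were not assigned to transcripts, so the leader in use in these cells is not known from the table.

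For the promoters, 4 of the 6 genes had a window in the RefSeq table (GRCh38.p14, 250 bases before to 50 after a start), namely PHGDH, PSAT1, MTHFD2 and ASNS. Both strands were searched for TGATGNAAN, the composite site that ATF4 shares with C/EBP factors. ASNS held 1 match, in 1 of its 2 windows, at position -68 from the RefSeq start of that window, shown in capitals with its flanks at chr7:97872458-97872486, minus strand.
ASNS: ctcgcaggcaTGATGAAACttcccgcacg

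The GENCODE gene starts upstream of that RefSeq start, and the match lies inside the gene as given below. This motif occurred in 3.61% of all 35116 windows. The letters were absent from the other windows of these members, which says nothing of sites outside them.

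Gene positions are on hg38 from GENCODE release 29. PHGDH (chromosome 1, 119648411 to 119744226, plus strand), the entry enzyme of serine synthesis, had 5 counts in the free library, 69 in the monosome, 98 in the light polysome and 520 in the heavy polysome library. As CPM these were 14.1 (interval 4.57 to 32.8), 51.9 (40.4 to 65.7), 65.4 (53.1 to 79.7) and 332 (304 to 362). The heavy polysome level thus stood far above the rest, and the monosome and light polysome levels did not differ beyond counting error. Every level here is a share of a library read from a bulk lysate, so fewer cells with the mRNA and less of it per cell cannot be told apart.

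PSAT1 (chromosome 9, 78297143 to 78330093, plus strand), the aminotransferase, had 3, 32, 107 and 554 counts in the same order. Its CPM climbed from 24.1 (16.5 to 34.0) in the monosome library to 71.4 (58.5 to 86.2) and 354 (325 to 385) in the light and heavy polysome libraries, each step clear of counting error. The free level, 8.44 (1.74 to 24.7), overlapped that of the monosomes.

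PSPH (chromosome 7, 56011051 to 56051604, minus strand), the phosphatase of the last step, was spread differently, with 1, 49, 85 and 61 counts. Its CPM was 36.9 (27.3 to 48.7) in the monosome, 56.7 (45.3 to 70.1) in the light polysome and 39.0 (29.8 to 50.1) in the heavy polysome library. The light polysome value was the highest. The interval of each of these 3 levels overlapped the next, although the ratio of heavy to light polysome given below lay under 1 beyond counting error. It was the member with no excess in the heavy pool.

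SHMT2 (chromosome 12, 57229327 to 57234935, plus strand), the mitochondrial serine hydroxymethyltransferase, had 3, 27, 56 and 218 counts, with a CPM of 139 (121 to 159) in the heavy polysome library against 37.3 (28.2 to 48.5) in the light. MTHFD2 (chromosome 2, 74198562 to 74217565, plus strand), the mitochondrial folate dehydrogenase, had 5, 91, 215 and 465 counts. It was the best counted member outside the heavy pool, with a CPM of 68.5 (55.1 to 84.0) in the monosome and 143 (125 to 164) in the light polysome library, and it reached 297 (271 to 325) in the heavy. ASNS (chromosome 7, 97852118 to 97872542, minus strand), the asparagine synthetase, had 2, 22, 35 and 158 counts and a heavy polysome CPM of 101.0 (85.9 to 118). For SHMT2 and ASNS the heavy polysome level alone stood clear of its nearest neighbour, while all 3 steps of MTHFD2 did.

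**Figure D1:**
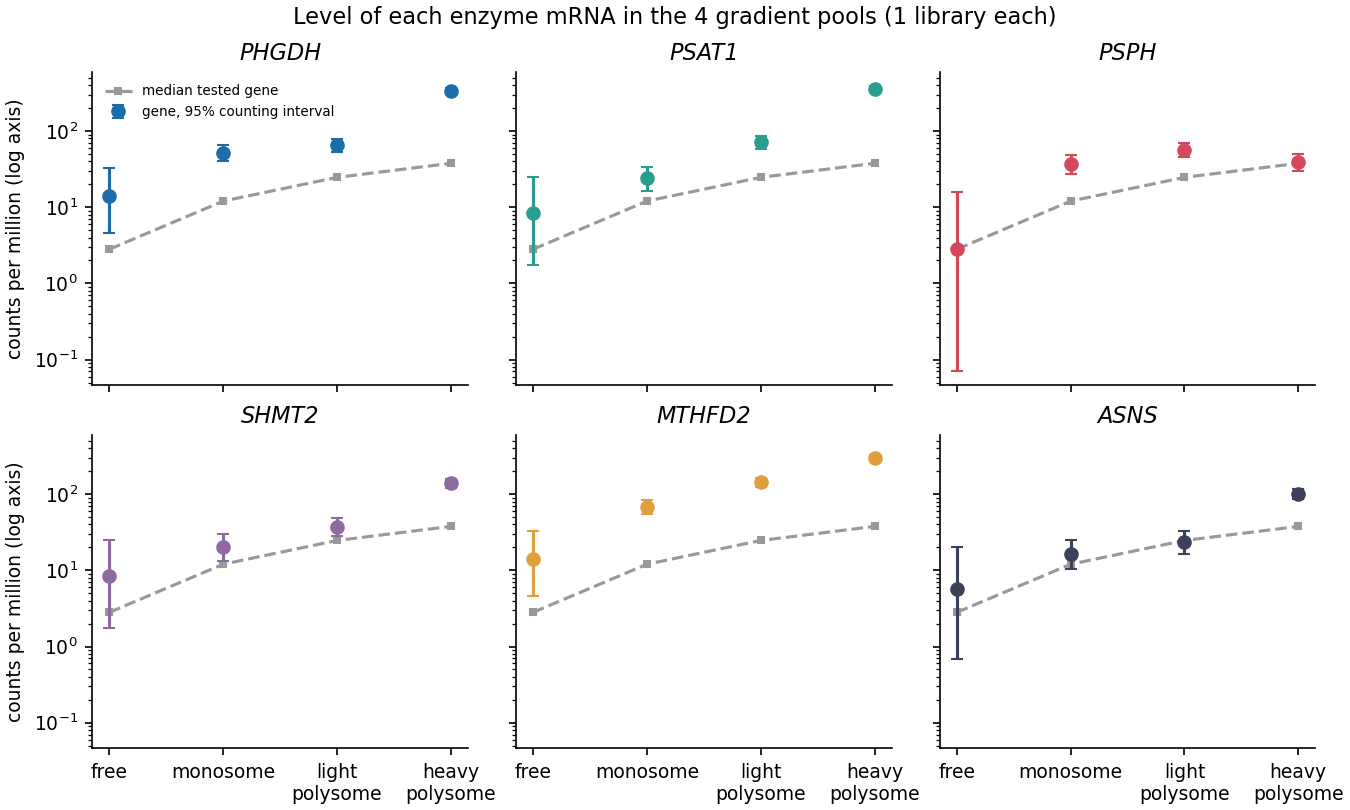
CPM of the 6 mRNAs (log axis) in the free, monosome, light polysome and heavy polysome libraries, 1 library each, with 95% counting intervals as bars and the median tested gene as a dashed grey line. In the heavy polysome library 5 mRNAs stand at 101.0 CPM or more, against 39.0 for PSPH and 37.7 for the median gene. All 6 lie at percentiles 62.5 to 88.4 of total count among tested genes, so a high level in 1 pool alone does not show enrichment there.

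Within the heavy polysome library the order was PSAT1, PHGDH, MTHFD2, SHMT2, ASNS and PSPH. In direct RNA sequencing a read stands for a molecule, so these levels were not divided by length. The first 3 overlapped in their intervals from neighbour to neighbour, and SHMT2, ASNS and PSPH each lay clear below the one before. In the light polysome library MTHFD2 alone stood clear of its neighbour, and in the monosome and free libraries every neighbouring pair overlapped. The 6 mRNAs together took 53.4 CPM (32.2 to 83.5) of the free, 218 (194 to 245) of the monosome, 397 (366 to 431) of the light polysome and 1263 (1208 to 1320) of the heavy polysome library. Their share rose along the whole gradient. The share of the median tested gene rose too, from 2.81 to 12.0, 24.7 and 37.7 CPM. Ratios are therefore given below relative to the median gene.

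To place each mRNA by a single figure, its CPM was divided over the 4 pools and the pools were weighted 0, 1, 2 and 3 from free to heavy polysome. PSAT1 had 77.3% of its summed CPM in the heavy polysomes, PHGDH 71.7%, ASNS 68.9%, SHMT2 67.8%, MTHFD2 56.8% and PSPH 28.8%, against a median of 47.8% over the tested genes. For PSPH the largest portion of CPM, 41.9%, lay in the light polysome library, and 27.2% lay in the monosome library. Every library is scaled to the same total here, so these are not portions of the mRNA molecules. With the scaling factors of edgeR or DESeq2 the monosome portion of PSPH is the largest instead. The mean position was 2.68 (2.61 to 2.75) for PSAT1, 2.54 (2.46 to 2.63) for PHGDH, 2.50 (2.34 to 2.66) for ASNS, 2.50 (2.36 to 2.64) for SHMT2, 2.38 (2.31 to 2.46) for MTHFD2 and 1.97 (1.84 to 2.11) for PSPH. Tested genes had a median position of 2.25 with quartiles of 1.95 and 2.47. Hence 4 members lay above the upper quartile, MTHFD2 lay between median and upper quartile, and PSPH lay near the lower quartile. ATF4 itself, with 272, 3745, 4895 and 670 counts, had 5.89% of its CPM in the heavy polysomes and a position of 1.46.

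**Figure D2:**
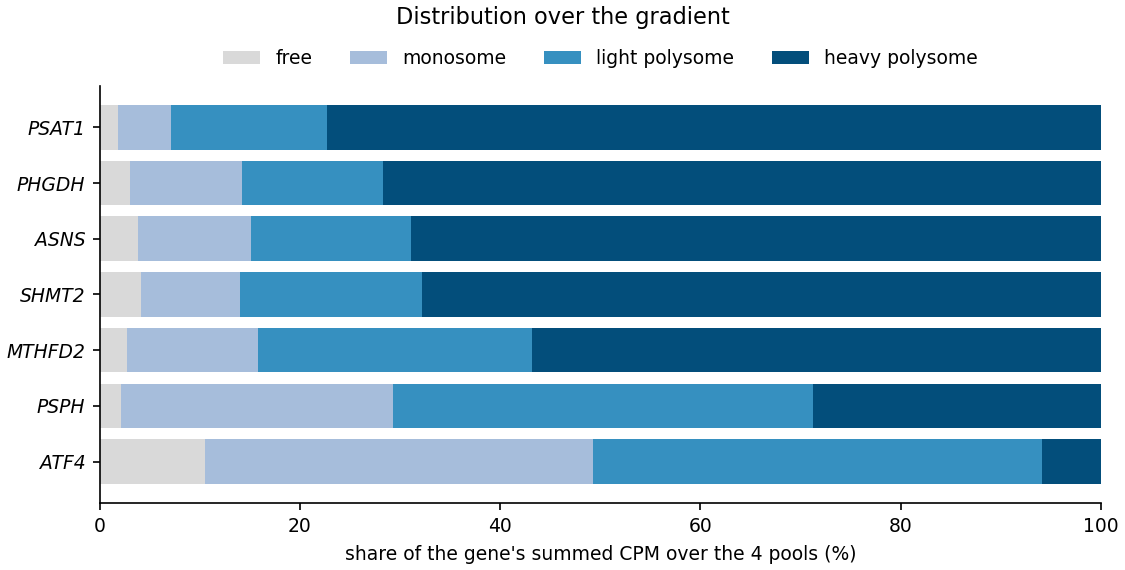
Share of each gene's summed CPM found in the free, monosome, light polysome and heavy polysome libraries (stacked bars, percent) for the 6 enzymes and for ATF4. The heavy polysome portion falls from 77.3% for PSAT1 to 28.8% for PSPH and is 5.89% for ATF4.

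Heavy polysomes were set against light polysomes to see which mRNAs bore the most ribosomes. This comparison had the most counts behind it. PHGDH, PSAT1, ASNS and SHMT2 lay at least 2-fold above the median gene, 4 of 6, where 26.8% of all tested genes did. PSPH lay at least 2-fold below it, 1 of 6, against 29.0% of all tested genes. On the log2 scale relative to the median gene, PHGDH lay at 1.75 (1.44 to 2.08), PSAT1 at 1.71 (1.42 to 2.03), ASNS at 1.51 (0.99 to 2.09), SHMT2 at 1.30 (0.88 to 1.76) and MTHFD2 at 0.46 (0.22 to 0.70). PSPH lay at -1.13 (-1.63 to -0.64). The first 4 overlapped, MTHFD2 lay below all of them without overlap, and PSPH lay below MTHFD2 without overlap. The median of the members was 1.40, with the quartiles of all tested genes at -1.20 and 1.07. As a plain ratio of shares PHGDH was 5.09-fold (4.09 to 6.38) and PSPH 0.688-fold (0.487 to 0.967) as abundant in the heavy as in the light library, where the median gene was 1.51-fold.

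Against the monosome library the order changed in part. PSAT1 lay highest at 2.12 (1.62 to 2.70), followed by SHMT2 at 1.01 (0.46 to 1.67), PHGDH at 0.93 (0.57 to 1.32), ASNS at 0.84 (0.22 to 1.58) and MTHFD2 at 0.37 (0.05 to 0.72), with PSPH at -1.66 (-2.23 to -1.09). PSAT1 did not overlap with PHGDH, ASNS or MTHFD2. At least 2-fold above the median gene were PSAT1 and SHMT2, 2 of 6 against 24.5% of tested genes, and PSPH was at least 2-fold below, 1 of 6 against 29.1%. SHMT2, PHGDH and ASNS sat close to the 2-fold line, and the count became 4 with the scaling factors of edgeR or DESeq2 in place of the median gene. The intervals of 5 members lay wholly above the median gene in both comparisons. MTHFD2 was among them at percentiles 61.1 (against light polysome) and 59.3 (against monosome) of all tested genes. The share of all tested genes with such intervals was not computed, so nothing about the members is read from this count. The members lay at percentiles 62.5 to 88.4 of total count among tested genes, and higher counts give narrower intervals. Both comparisons share the heavy polysome library and are not independent of each other.

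**Figure D3:**
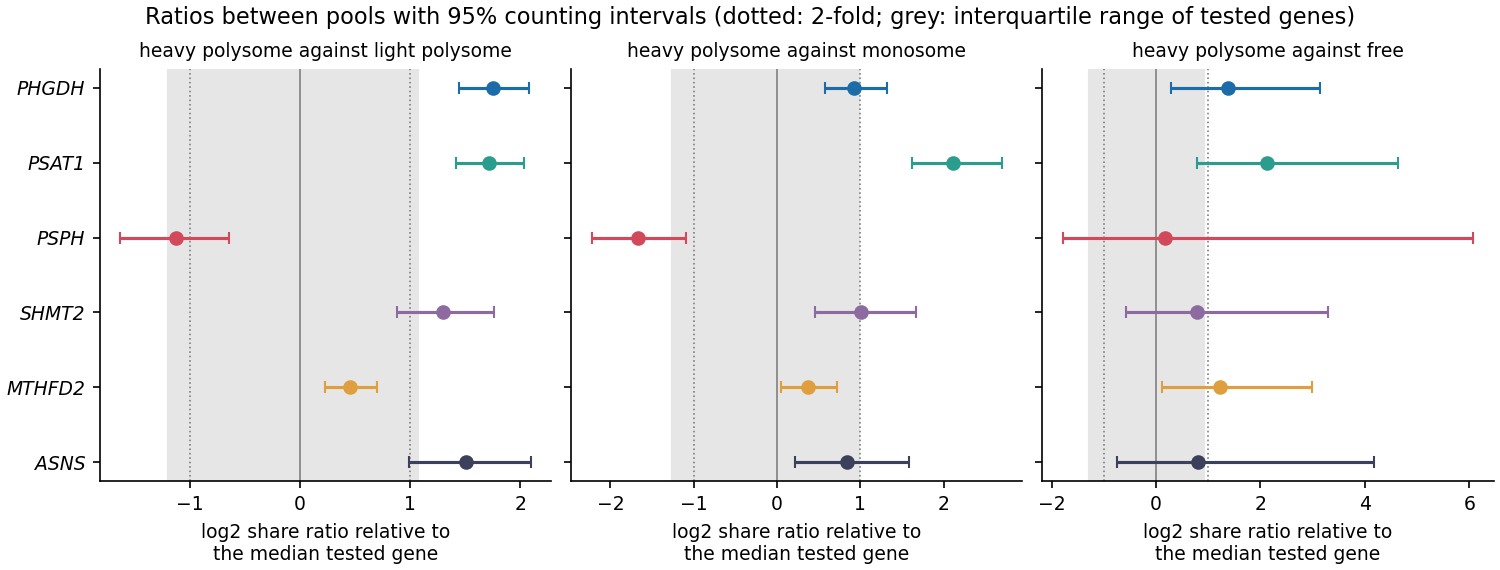
Log2 ratio of shares relative to the median tested gene for each enzyme in heavy against light polysome, heavy polysome against monosome and heavy polysome against free, with 95% counting intervals as bars, the interquartile range of all tested genes in grey and the 2-fold lines dotted. PSPH lies left of 0 in the first and second panel, the other 5 lie right of it, and the intervals widen in the third panel because the free library gave 1 to 5 counts per gene.

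Comparisons with the free library asked how far the mRNAs were engaged with ribosomes at all, and here depth set the limit. The 6 genes had 19 counts together in that library. In heavy polysome against free PSAT1 lay at 2.12 (0.79 to 4.63), PHGDH at 1.38 (0.29 to 3.15) and MTHFD2 at 1.22 (0.12 to 2.99), each at least 2-fold above the median gene, 3 of 6 against 23.5% of tested genes. ASNS at 0.80, SHMT2 at 0.78 and PSPH at 0.17 had intervals that included the median gene. None was at least 2-fold below it, where 30.0% of tested genes were. Summed, the share of the 6 was 23.6-fold higher in the heavy polysome than in the free library (15.1 to 39.3), against 8.26-fold for the median gene.

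In monosome against free 1 of 6 was at least 2-fold above the median gene (21.6% of tested genes) and none was as far below (20.0%). That member was PSPH at 1.87, on 1 free count, and its interval of -0.10 to 7.78 included the median gene, as did those of the other 5. Summed, the share of the 6 was 4.08-fold higher in the monosome than in the free library (2.57 to 6.88), against 2.41-fold for the median gene. No difference is read from this, because the median gene's value has 0.5 added to each count and the sum has not. That value also rises with a minimum of 100 counts, where ASNS fell from 0 to -0.12 relative to the median gene. In light polysome against free PSPH was again the 1 of 6 above (25.3% of tested genes), at 1.49 (-0.45 to 7.38), and none lay as far below (25.0%). Their summed share was 7.44-fold higher in the light polysome than in the free library (4.72 to 12.4), and this interval included the 4.82-fold of the median gene. The limit from the added 0.5 applies here too. For no single member was a difference from the median gene detectable at this depth in either comparison. All comparisons with free share that library.

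Coding length was compared with the heavy to light ratio because a longer reading frame has room for more ribosomes. PSPH has the shortest reading frame, 678 nucleotides or 225 codons, and MTHFD2 (1053), PSAT1 (1113), SHMT2 (1515), PHGDH (1602) and ASNS (1686) follow. Across the 6 the Spearman rho was 0.71, but 0.50 over the 5 without PSPH. It was 0.33 across 7464 tested genes. All points come from the same pair of libraries, and genes are not independent replicates.

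The members were then set beside genes of like length. In the class of 600 to below 900 nucleotides, 1219 genes had a median of -0.20 and quartiles of -1.13 and 0.77, so PSPH lay 0.93 below its class median, at percentile 25.0. From 900 to below 1200 nucleotides, 1273 genes had a median of 0.41. MTHFD2 lay at percentile 50.4 of that class and PSAT1 at percentile 80.1, though their reading frames differ by few codons (350 and 370). ATF4, with 351 codons, lay at percentile 0.471 of the same class, at -3.52. From 1500 to below 2000 nucleotides, 1127 genes had a median of 0.65, and SHMT2, ASNS and PHGDH lay at percentiles 69.7, 74.9 and 81.1. The median did not rise further with length. It was 0.37 from 2000 to below 3000 nucleotides and -0.05 from 3000 nucleotides on. Against the monosome library the percentile in the same classes was 91.8 for PSAT1, 70.5 for SHMT2, 67.8 for PHGDH and 65.6 for ASNS. It was 49.5 for MTHFD2 and 20.5 for PSPH.

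**Figure D4:**
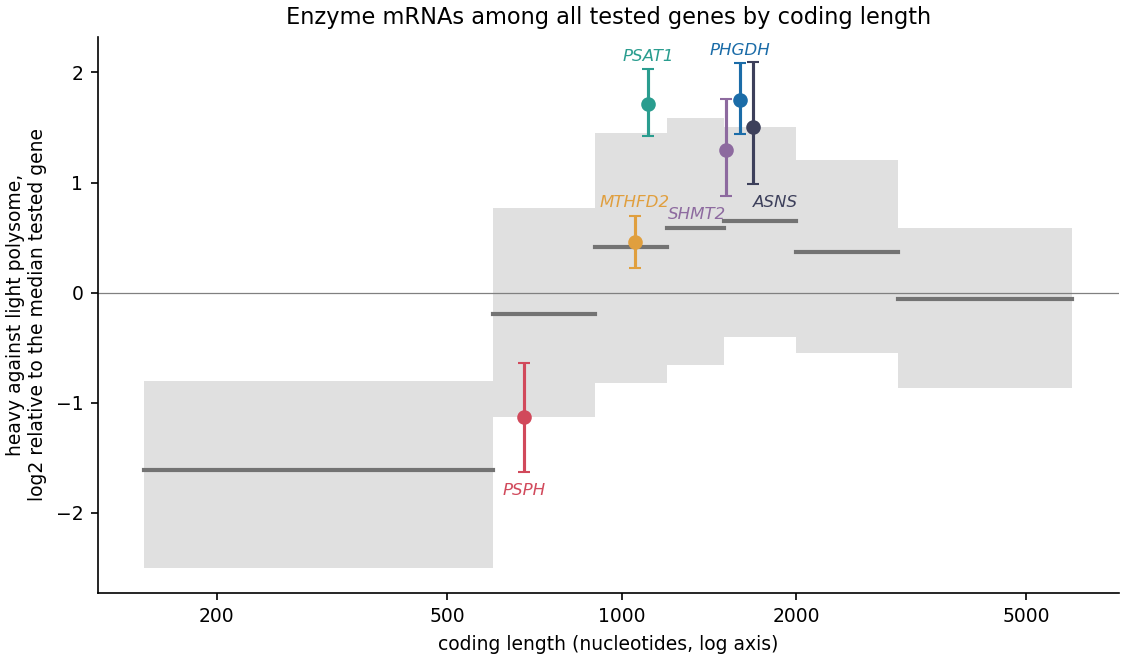
Heavy against light polysome, log2 relative to the median tested gene, plotted over coding length in nucleotides (log axis) for the 6 enzymes with 95% counting intervals. Grey boxes give the interquartile range and dark lines the median of all tested genes in each of 7 length classes, the outermost of which are open-ended and drawn to fixed ends. PSAT1 (1.71) and MTHFD2 (0.46) differ by more than their intervals at similar length, and PSPH (-1.13) lies at the lower quartile of its class.

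Genes with the most similar spread over the 4 pools were sought among 4342 others with at least 100 counts, by the part of the summed CPM that would have to move to another pool. PHGDH was nearest to PAF1 (0.739 percentage points), PSAT1 to EIF5 (0.457), SHMT2 to WBP2 (0.769), MTHFD2 to TSEN34 (0.583) and ASNS to STAU1 (0.638). Within 5 points of each of these members lay 133 to 234 genes. PSPH had 22 genes within 5 points, the nearest being FTSJ1 (1.85) with 2, 100, 187 and 139 counts. Among the members PHGDH, ASNS and SHMT2 lay 2.51 to 5.16 points apart, PSAT1 lay 7.13 points from PHGDH, and PSPH lay 28.6 to 48.5 points from the other 5. F8A1 and F8A3, near-identical copies that tied as the second nearest to MTHFD2, had equal counts in every library, so these 2 cannot be told apart here. MTHFD2 has 7 annotated pseudogenes, PSAT1 and ASNS 4 each and PSPH 1, none of which has a row in the table; how reads shared with them were counted was not given in the sources used here, and the 4 genes' values are uncertain to that extent.

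Other enzymes of serine, glycine and folate metabolism were spread over a wide range. Of 25 listed genes 13 had enough counts, and in heavy against light polysome 7 were at least 2-fold above the median gene and 2 at least 2-fold below, with a list median of 1.00. Over all tested genes these shares are 26.8% and 29.0%, and the median is 0 by construction; both apply to each list that follows. In heavy polysome against free 4 of the 13 lay above and 2 below, with a median of 0.11, where 23.5% and 30.0% of all tested genes did. SHMT1, the cytosolic counterpart of SHMT2, had 0, 15, 28 and 172 counts and lay at 1.95 (1.38 to 2.60), overlapping SHMT2. MTHFD1L, which completes the mitochondrial folate route, lay at 1.18 (0.70 to 1.71), and the cytosolic trifunctional MTHFD1 at 0.16 (-0.43 to 0.78). DLD, the shared dehydrogenase of the glycine cleavage system, lay highest of the 13 at 3.83 (2.79 to 5.41), and thymidylate synthase TYMS reached 1.90 (1.61 to 2.21) with 642 heavy polysome counts. The lowest was MTHFD2L, the isozyme of MTHFD2, named here after its values were seen. It had 10, 62, 52 and 9 counts and lay at -3.12 (-4.39 to -2.15), below MTHFD2 without overlap.

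Purine nucleotide synthesis, which draws on the folate-borne carbons, had 8 of 10 tested genes at least 2-fold above the median gene and none as far below, with a median of 1.99. PPAT, its first committed enzyme, lay at 3.63 (2.58 to 5.21) and PAICS at 2.76 (2.41 to 3.14), while IMPDH1, of the guanine branch, lay at -0.52 (-0.76 to -0.28). Other enzymes of non-essential amino acids had 7 of 17 above and 2 below by that measure, and a median of 0.88. GOT2, the mitochondrial aspartate aminotransferase, lay at 2.79 (2.28 to 3.39) and glutamine synthetase GLUL at 1.03 (0.78 to 1.30). In proline synthesis PYCR1 lay at 0.63 (0.33 to 0.94) and ALDH18A1 at -0.17 (-0.78 to 0.46). ASS1, of arginine synthesis, was the lowest of the 17, at -1.43 (-1.85 to -1.01).

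Of 20 tested genes of the integrated stress response 3 were at least 2-fold above the median gene and 7 at least 2-fold below, with a median of 0.04. Lowest among those with at least 100 counts in the pair was ATF4 (-3.52), and EIF4EBP1, the inhibitor of the cap-binding protein, lay at -2.63 (-2.82 to -2.45); the tRNA exporter XPOT was highest at 2.32 (1.72 to 3.04). Amino acid transporters had 3 of 14 above and 2 below and a median of -0.10, with the large neutral amino acid transporter SLC7A5 at 1.31 (1.09 to 1.54) and the glutamine transporter SLC1A5 at 0.33 (0.02 to 0.65). Of the synthetases that load serine, glycine and asparagine onto tRNA 4 were tested and 2 lay at least 2-fold above: the asparaginyl enzyme NARS at 2.92 (1.91 to 4.37) and the seryl enzyme SARS at 1.21 (0.87 to 1.58). GARS lay at 0.11 (-0.23 to 0.47). In heavy polysome against monosome, where 24.5% and 29.1% of all tested genes lay above and below, the purine list had 8 of 10 above and 0 below. The serine, glycine and folate list had 5 and 2 of 13, the other amino acid enzymes 7 and 2 of 17, and the stress response list 7 and 7 of 20. The transporters had 3 and 1 of 14. The synthetases had 0 above and 1 below of 4, with a median of -0.24, against 0.78 in heavy against light polysome. In heavy against light polysome the 6 enzymes, with a median of 1.40, lay between the purine enzymes and the other folate enzymes. Whether the lists differ was not tested.

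**Figure D5:**
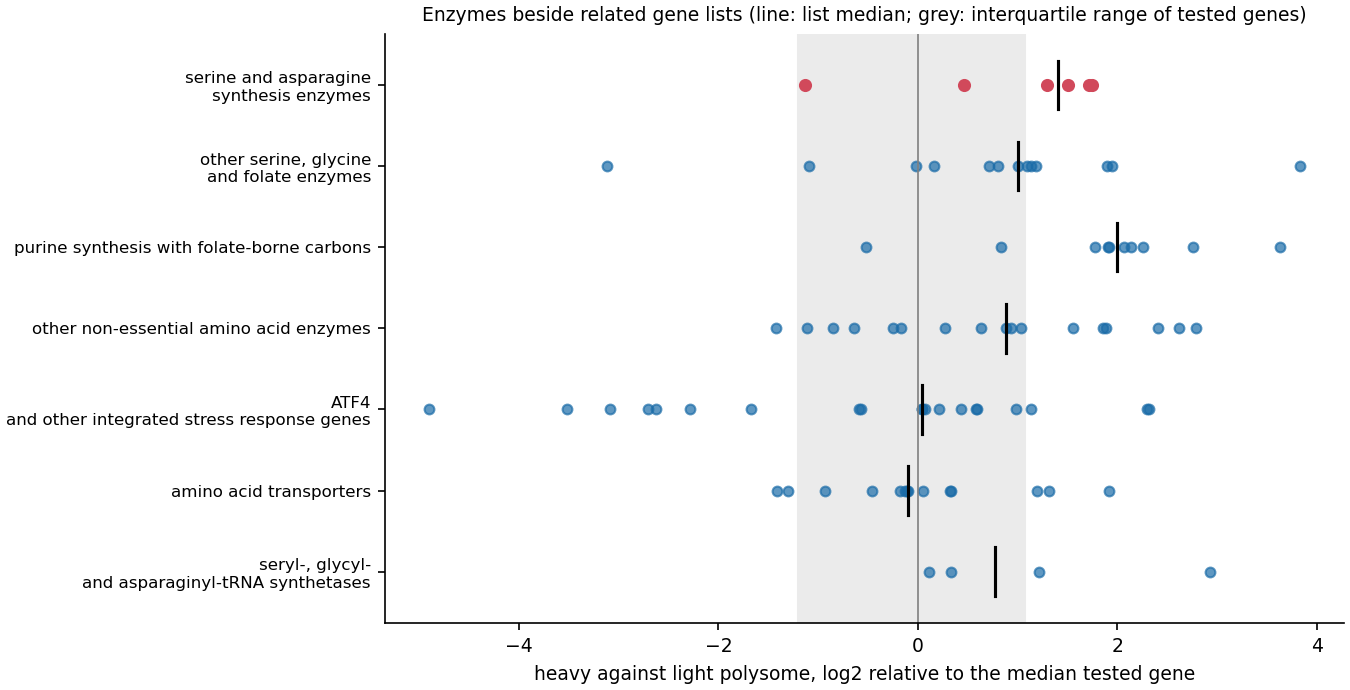
Heavy against light polysome, log2 relative to the median tested gene, for each tested gene (points) of the 6 enzymes and of 6 related gene lists, with the median of each list as a vertical line and the interquartile range of all tested genes in grey. The medians are 1.40 for the enzymes, 1.99 for purine synthesis and 0.04 for the stress response list.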

How the data were processed

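The authors deposited raw counts per gene symbol, whole numbers without scaling. Alignment and counting tools were minimap2 2.15 and featureCounts of Subread 1.6.2, and the build was hg38, per the submitters' processing notes. What annotation was used, whether strand counted and how reads with several alignments were treated was not given in the sources used here. SHMT2, MTHFD2 and ASNS overlap other annotated genes. Those with a row in the table overlap SHMT2 or MTHFD2 and had 0 counts. The genes that overlap ASNS have no row, and AC079781.5 among them lies on the same strand over 20425 bases. How reads in such overlaps were counted was not given in the sources used here. No per-sample column was left unused.

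From the counts, CPM, log2 ratios of shares (0.5 added to each count, over the library total) and exact intervals (Poisson for a level, Clopper-Pearson for a ratio) were computed with Python 3.11.15, numpy 2.4.6, pandas 2.3.3 and scipy 1.17.1, and plotted with matplotlib 3.10.9. Intervals of the mean position are normal approximations from Poisson variances and cover counting error only. Ratios were centred on the median of the 7527 genes with at least 30 counts. Higher or lower means at least 2-fold from that median. With 1 library per pool no edgeR quasi-likelihood test or other test could be fitted; edgeR 4.0.16 and DESeq2 1.42.0 (R 4.3.3) gave scaling alternatives only. The script was tested on simulated data.

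Transcript features came from GENCODE release 29, which may not be the authors' annotation, for 99.2% of tested genes, with the highest-ranked APPRIS transcript per gene. Members, lists and tests were chosen with earlier results of these data known, and the length classes after their values were seen. Named genes were the members, the 2 most counted and the highest and lowest genes of each list in heavy against light polysome (at least 100 counts in that pair), the 3 nearest genes per member and a short list of pathway genes; the text leaves some out.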

Additional observations from a re-analysis of the deposited data

How the results depend on the processing

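In heavy against light polysome 4 members lay above under each minimum count, pseudocount and floor tried. Of all genes 26.3 to 29.6% did so under these settings. A minimum count shifts all members alike and the floor changes none of them here, so their order could not change. PSPH was no longer 2-fold below (0 members) with a minimum of 100 counts, with uncentred library totals or with totals without 86 ribosomal protein genes. Without centring the members' median was 1.99 there, 2.63 against monosome and 4.06 against free. Leaving out ribosomal protein genes gave 1.79 against monosome. In that comparison the count above was 1 at a minimum of 100 counts, 4 with no minimum, with TMM and with DESeq2, and 5 with either kind of uncentred total, where 0 lay below. Of all genes 25.5% (minimum of 100 counts), 27.1% (no minimum), 30.0% (TMM) and 30.1% (DESeq2) lay above there. The share was 66.3% with library totals and 47.4% without ribosomal protein genes. With uncentred library totals PSPH turned from -1.66 to 0.078, whereas with totals without ribosomal protein genes it stayed below 0, at -0.76.

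Counts of members higher depended most on the free library. For uncentred totals, TMM and DESeq2, higher means at least 2-fold by the scaled ratio itself, not relative to the median gene. In heavy polysome against free they were 5 (minimum of 10, pseudocount 1, TMM, DESeq2) or 6 (no minimum, genes without a count at 3 counts, both uncentred totals). For light polysome against free they were 2 (the same 4 settings), 3 (no minimum, floor), 4 (without ribosomal protein genes) or 6 (library totals). In monosome against free they were 2 (minimum of 10, pseudocount 1, TMM), 3 (no minimum, floor, without ribosomal protein genes) or 6 (library totals). The shares of all genes moved too. Under centring, TMM or DESeq2, 22.5 to 36.1% of them were higher in heavy polysome against free. Likewise 22.7 to 30.5% of them were higher in light polysome and 18.0 to 26.6% in monosome against free. With library totals 84.4%, 79.8% and 58.5% of them were higher in heavy polysome, light polysome and monosome against free, and without ribosomal protein genes 67.0%, 57.8% and 46.8%.

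Without PSPH, a choice made after seeing the data, the members' median in light polysome against free was -0.18 in place of 0.21. With summed counts, also chosen after seeing the data, all 5 medians kept their sign. The members' median position, 2.50 over library totals, was 1.94 with TMM and 1.91 with DESeq2, and 5 of 6 members stayed above the median gene's. The lowest of these 5 lay at 1.92 with TMM and 1.90 with DESeq2. PSPH moved from 1.97 to 1.59 with TMM and 1.58 with DESeq2, below the median gene's 1.76 and 1.73. No paired analysis was possible because each pool has 1 library, and none could be left out in turn.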
